A study of Mus musculus with 6 samples.

Results

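The 36 genes described here mark T cells, B cells and natural killer (NK) cells or are shared by most white blood cells. They were taken as a list of symbols, and every array probe that the platform annotation pairs with 1 of these symbols was used, whatever its signal. The list was chosen with earlier results of these data known, so shares of calls among these genes are descriptions of them. Of the 36 genes, 32 had a probe, 61 probes in all, among 19056 genes with a named probe on the array. Lck, Cd79a, Gzma and Il2rg were not analysed here, since the annotation used pairs no probe with them. The genes fall into 5 roles: the T cell receptor complex with its co-receptors and signalling proteins, B cell receptor and B cell genes, cytotoxic and NK cell genes, cytokine receptors with the TNF family, and genes shared by most leukocytes.

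RNA of whole brown adipose tissue was measured on Illumina bead arrays from 3 Cd36 null and 3 wild type (WT) samples of male mice on the C57BL6J background. All were 3 months old and had been fasted overnight. Cd36 is a receptor at the cell surface through which fat cells import fatty acids, and the comparison addresses what its loss changes in the RNA of brown fat. The labels name no promoter or Cre for the null allele and do not say whether the samples of a genotype came from separate animals, so the spread behind each p-value may be wholly or partly technical.

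T cells recognise antigen through a receptor whose signal is carried by the CD3 chains to the kinases Lck and Zap70 and the adaptor Lat. B cells use an antibody-type receptor that signals through Cd79a and Cd79b, and NK cells and cytotoxic T cells kill with granules that hold perforin and granzymes. Adipose tissue holds resident lymphocytes and macrophages, and several of the genes shared by leukocytes are also active in macrophages.

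Between 18236 and 19287 probes were detected (detection p under 0.05) on the Cd36 null arrays and between 17021 and 17125 on the WT arrays. Over the tested probes, arrays of the same genotype correlated at 0.974 to 0.992 and arrays of different genotypes at 0.962 to 0.973, as a description across probes. The only probe named Cd36 was detected on 0 of 3 Cd36 null arrays and on 1 of 3 WT arrays. Its log2 values were 5.85, 5.86 and 5.89 in Cd36 null tissue and 6.27, 5.86 and 5.99 in WT tissue, so it lay at background and could not check the labels. The brown fat markers Ucp1, Cidea and Adipoq were detected on all 6 arrays. Of 13 tested brown adipocyte genes, Elovl3 rose and Prdm16 fell in Cd36 null tissue. With 3 arrays a genotype, precision is limited by their number.

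Lymphocyte and leukocyte genes were detected more often in Cd36 null brown fat. Of the 61 probes, 32 (52.5%) were detected on at least 1 Cd36 null array and 22 (36.1%) on at least 1 WT array. Over all 45267 probes these shares were 47.5% and 43.2%, so detection was more frequent on the Cd36 null arrays in general. Detection on all 3 Cd36 null arrays and on no WT array was seen for 6 of the 61 probes, against 0.912% of all probes, and the opposite pattern for 0 of the 61, against 0.0641% of all probes. The 6 probes belong to Cd3d, Cd3e, Cd3g, Cd2, Klrd1 and Il7r. Another 27 probes were detected on no array, and 9 genes had no detected probe at all: Cd4, Cd5, Ms4a1, Blk, Gzmb, Il2rb, Ptprc, Ptprcap and Cd48. A probe at background gives no measure of its transcript, and in whole tissue fewer cells of a type and less RNA per cell cannot be told apart.

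**Figure D1:**
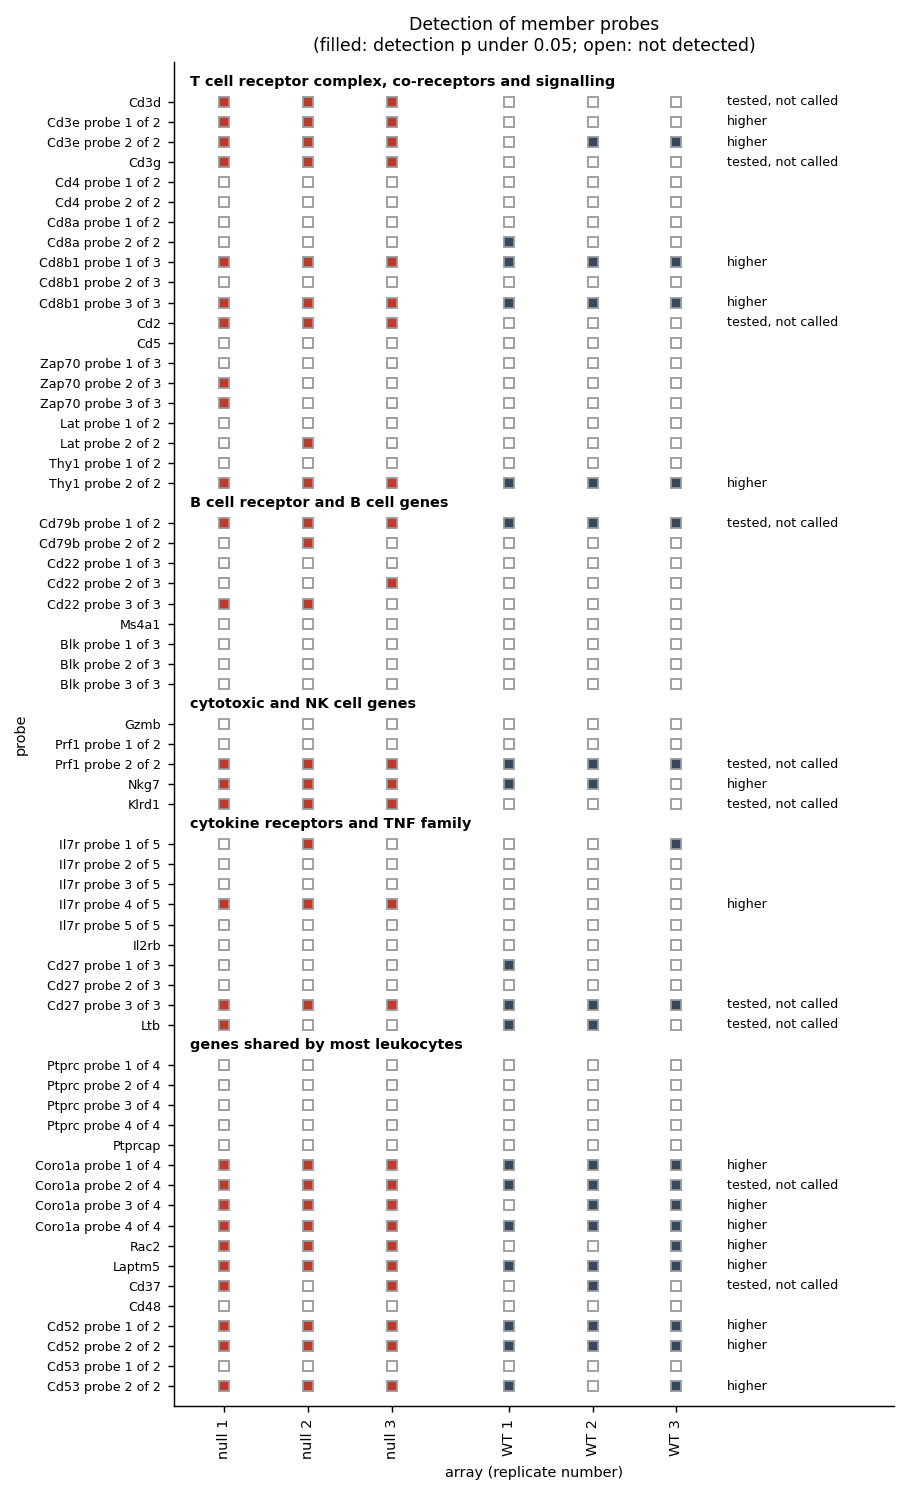
Detection of the 61 probes on each array. Each row is a probe, grouped by role, and each column an array (Cd36 null replicates 1 to 3, then WT replicates 1 to 3); filled squares mark a detection p under 0.05, and the words at the right give the outcome of the test. Probes of Cd3d, Cd3e, Cd3g, Cd2, Klrd1 and Il7r are filled on the 3 Cd36 null arrays and open on the 3 WT arrays.

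The probes detected on at least 3 arrays, 25 probes of 19 genes, were tested between genotypes. Differences are Cd36 null minus WT in the authors' log2 table, tested with limma and adjusted by Benjamini-Hochberg over all 17912 tested probes. In all, 15 of the 25 probes were higher in Cd36 null tissue at an adjusted p under 0.05, against 5.36% of all tested probes. The number lower was 0 of 25, against 2.85% of all tested probes, and 0 were lower at an unadjusted p under 0.05 or with neqc values. The 15 probes belong to 10 genes: Cd3e, Cd8b1, Thy1, Nkg7, Il7r, Coro1a, Rac2, Laptm5, Cd52 and Cd53. All Cd36 null arrays lay above all WT arrays for 20 of the 25 probes, against 13.6% of all tested probes, and below them for 0, against 13.8%. Several of the 25 probes were tested only because they were detected on the Cd36 null arrays, so this count alone carries no weight. Among the 12 probes detected on all 6 arrays, 8 were higher and 0 lower, against 5.20% and 3.38% of all such probes. With no filter, 9 of the 61 probes were higher and 0 lower, against 1.24% and 0.638% of all 45267 probes. With no filter, 8 of the 15 calls ended, those of both Cd3e probes, the dimmer Cd8b1 probe, Thy1, Nkg7, 1 Coro1a probe, Rac2 and Cd53, while Cd2 and 1 further Coro1a probe passed. The median difference over the 19 genes was 0.54 log2, against -0.036 over all tested probes. That value is the difference of Cd3d, 1 of 5 genes detected on no WT array and so measured there against background, and with these 5 genes at their bound the median was 0.46. Over the 8 genes detected on all 6 arrays it was 0.61, and over all 32 genes with no filter 0.18, against -0.0057 over all probes.

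**Figure D2:**
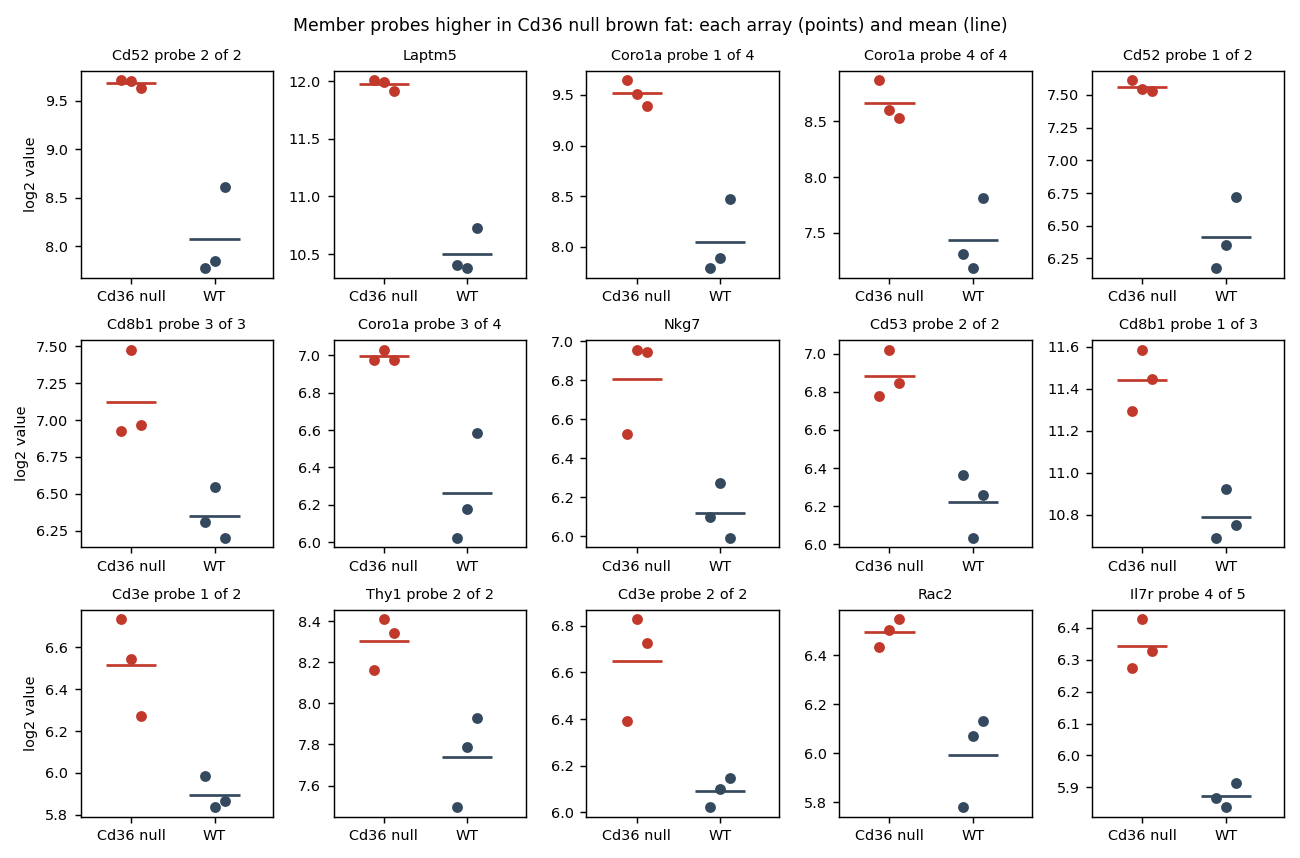
The 15 probes that were higher in Cd36 null tissue. Each panel shows the log2 value (vertical axis, scaled separately in each panel and not starting at 0) on the 3 Cd36 null arrays and the 3 WT arrays as points, with the mean as a line. In every panel the lowest Cd36 null array lies above the highest WT array. WT replicate 3, the right-hand point of its group, is the highest WT array for Laptm5, Cd52 and the 3 Coro1a probes. It is also the highest for Rac2, Thy1, Il7r and the second Cd3e probe, and not for the remaining panels.

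Genes shared by most leukocytes had the largest median difference of the 5 roles, 1.06 log2 over 6 tested genes. Of 9 genes, all with a probe, 5 rose in Cd36 null tissue: Laptm5, Cd52, Coro1a, Cd53 and Rac2. Laptm5, a lysosomal membrane protein of blood-derived cells, had log2 values of 12.01, 11.99 and 11.92 in Cd36 null tissue and 10.40, 10.38 and 10.72 in WT tissue. The rise was 1.47 ± 0.13 log2 (SE of 3 against 3 arrays), or 2.77-fold, with an adjusted p of 0.000254 in limma. The 3 Cd36 null arrays were within 0.1 log2 of each other and far above the highest WT array, replicate 3.

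Cd52, a small surface glycoprotein of lymphocytes and monocytes, was measured by a pair of probes. The brighter gave 9.71, 9.71 and 9.63 in Cd36 null tissue and 7.77, 7.84 and 8.61 in WT tissue, a rise of 1.60 ± 0.21 log2 (SE, adjusted p = 0.00134). The other gave 7.61, 7.55 and 7.53 in Cd36 null tissue and 6.18, 6.35 and 6.72 in WT tissue, a rise of 1.15 ± 0.15 (adjusted p = 0.00167). Both probes were detected on all 6 arrays, and on both WT replicate 3 was the WT array nearest to the Cd36 null arrays.

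Coro1a encodes coronin, an actin-binding protein that leukocytes need to migrate and T cells need to survive. Its 4 probes differed by 0.41 to 1.46 log2, and 3 of them passed. The probe of largest difference gave 9.65, 9.51 and 9.39 in Cd36 null tissue and 7.79, 7.89 and 8.47 in WT tissue (1.46 ± 0.18 log2, SE, adjusted p = 0.00120). The others that passed rose by 1.23 ± 0.18 (adjusted p = 0.00276) and 0.73 ± 0.16 (adjusted p = 0.0184). The remaining probe gave 6.65, 6.69 and 6.53 in Cd36 null tissue and 6.20, 6.29 and 6.16 in WT tissue, with an adjusted p of 0.0696. None of the 4 probes had overlapping genotypes.

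Cd53, a tetraspanin of leukocyte membranes, gave 6.78, 7.02 and 6.85 in Cd36 null tissue and 6.37, 6.03 and 6.26 in WT tissue, a rise of 0.66 ± 0.14 log2 (SE, adjusted p = 0.0162). Its second probe was detected on no array. Rac2, a GTPase of blood cells that drives the oxidative burst and migration, gave 6.43, 6.50 and 6.55 in Cd36 null tissue and 5.78, 6.07 and 6.13 in WT tissue (0.50 ± 0.13, adjusted p = 0.0487). Rac2 was detected on 3 of 3 Cd36 null arrays and 1 of 3 WT arrays, so its WT level lay near background. Cd37, a tetraspanin most abundant on B cells, differed by 0.061 ± 0.13 (adjusted p = 0.854), with overlapping arrays. Ptprc, the surface phosphatase CD45 carried by nearly all leukocytes, had 4 probes, none detected on any array. Their log2 values lay between 5.79 and 5.93 in Cd36 null tissue and between 5.79 and 6.01 in WT tissue, the range of the array background. Ptprcap, the protein bound to CD45, and Cd48, an adhesion receptor, were not detected either.

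The leukocyte genes that rose together are represented here by the promoters of 3 of them, with that of the T cell gene Cd3e for comparison. RefSeq promoter sequences of GRCm38.p6 were matched by symbol for 24 of the 36 genes, and each covers 250 bases before the gene's start and the bases after it, 300 in all, 5′ to 3′ on the gene's own strand. Capitals mark GAGGAA, a core recognised by the blood cell factor PU.1, and TGTGGT, a core recognised by RUNX factors, on either strand. For Coro1a, the first of 2 starts is shown.
Laptm5, chr4:130913066-130913365, plus strand: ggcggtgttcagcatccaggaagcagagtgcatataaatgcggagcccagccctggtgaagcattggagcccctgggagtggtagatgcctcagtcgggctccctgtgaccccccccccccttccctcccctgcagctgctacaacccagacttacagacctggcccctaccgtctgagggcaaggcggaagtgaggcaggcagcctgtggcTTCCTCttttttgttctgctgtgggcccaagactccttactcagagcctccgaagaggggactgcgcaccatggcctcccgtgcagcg
Coro1a, chr7:126704767-126705066, minus strand: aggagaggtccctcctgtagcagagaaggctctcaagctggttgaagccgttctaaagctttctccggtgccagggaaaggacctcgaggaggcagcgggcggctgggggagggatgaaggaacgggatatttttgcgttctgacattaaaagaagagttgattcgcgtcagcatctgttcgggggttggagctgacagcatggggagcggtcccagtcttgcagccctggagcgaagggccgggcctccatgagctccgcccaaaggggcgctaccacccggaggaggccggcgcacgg
Cd53, chr3:106790100-106790399, minus strand: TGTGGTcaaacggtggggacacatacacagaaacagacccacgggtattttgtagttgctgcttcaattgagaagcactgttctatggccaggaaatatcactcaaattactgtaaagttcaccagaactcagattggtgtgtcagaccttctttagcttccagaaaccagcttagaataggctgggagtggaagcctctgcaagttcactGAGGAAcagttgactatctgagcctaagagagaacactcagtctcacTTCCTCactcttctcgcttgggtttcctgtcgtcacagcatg
Cd3e, chr9:45009562-45009861, minus strand: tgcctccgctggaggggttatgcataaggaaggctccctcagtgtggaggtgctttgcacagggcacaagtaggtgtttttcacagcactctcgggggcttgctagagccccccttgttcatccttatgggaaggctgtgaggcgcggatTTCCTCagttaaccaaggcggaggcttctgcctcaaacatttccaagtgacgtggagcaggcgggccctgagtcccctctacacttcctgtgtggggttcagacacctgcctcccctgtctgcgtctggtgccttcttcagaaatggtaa
GAGGAA or its complement was found once in the windows of Laptm5 and Cd3e and at 2 places in that of Cd53, which also held TGTGGT at 1 place, while the Coro1a window held neither. Of the 24 genes, 15 held GAGGAA and 10 held TGTGGT at their first listed start, against 28.3% and 16.8% of all 32851 promoters in the table. A match of letters is a description and does not show binding.

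T cell genes were higher for some members and at background for others. Of 12 genes, 11 had a probe and 6 were tested. By their brightest tested probe, Cd3e, Cd8b1 and Thy1 rose, and Cd3d, Cd3g and Cd2 did not pass. All 8 tested probes of these genes had Cd36 null arrays above all WT arrays, against 13.6% of all tested probes. Of the 8 probes, 4 were detected on no WT array and were tested only through the Cd36 null arrays, so this count alone carries no weight. The CD3 chains Cd3d, Cd3e and Cd3g, which carry the receptor's signal into the cell, are consecutive protein-coding genes in the RefSeq table.

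Cd3e was measured by a pair of probes. The first gave 6.74, 6.55 and 6.27 in Cd36 null tissue and 5.98, 5.84 and 5.87 in WT tissue. It was detected on all 3 Cd36 null arrays and no WT array, and the difference was at least 1.34-fold (limma, adjusted p = 0.0278). The second gave 6.39, 6.83 and 6.73 in Cd36 null tissue and 6.02, 6.10 and 6.15 in WT tissue, a rise of 0.56 ± 0.14 log2 (SE, adjusted p = 0.0399). The bound sets the Cd36 null mean against the mean of, per WT array, the higher of the lowest detected signal and the probe's own. It takes no account of the spread between arrays, so for a gene that did not pass it shows no minimum difference.

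Cd3d gave 6.36, 6.76 and 6.17 in Cd36 null tissue and 5.82, 5.97 and 5.87 in WT tissue. Its bound was 1.26-fold, with an adjusted p of 0.0722 in limma. Cd3g gave 6.15, 6.94 and 6.59 in Cd36 null tissue and 5.97, 6.08 and 5.88 in WT tissue, with a bound of 1.38-fold (adjusted p = 0.0933). Neither passed, and for both, Cd36 null replicate 2 was the highest array, with SDs of 0.30 and 0.40 over the Cd36 null arrays against 0.077 and 0.10 over the WT arrays. Cd2, an adhesion receptor of T and NK cells, gave 6.30, 6.28 and 6.22 in Cd36 null tissue and 5.85, 5.83 and 5.87 in WT tissue. The bound for Cd2 was 1.12-fold, and it fell just short of passing (adjusted p = 0.0517).

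Cd8b1, the beta chain of the co-receptor CD8, was detected on all 6 arrays by 2 of its 3 probes. The brightest gave 11.30, 11.59 and 11.45 in Cd36 null tissue and 10.69, 10.92 and 10.75 in WT tissue, a rise of 0.65 ± 0.13 log2 (SE, adjusted p = 0.0147). Another gave 6.93, 7.48 and 6.97 in Cd36 null tissue and 6.31, 6.54 and 6.20 in WT tissue (0.77 ± 0.17, adjusted p = 0.0232), and the last was detected on no array. Cd8a, the alpha chain that pairs with it and its neighbour in the RefSeq table, was detected by neither probe on any Cd36 null array and by 1 of 2 probes on 1 WT array. The 2 Cd8a probes ranged from 5.77 to 5.96 in Cd36 null tissue and from 5.78 to 6.17 in WT tissue. Whether the detected Cd8b1 probes read the transcript of CD8 T cells was not tested.

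Thy1, a surface glycoprotein of mouse T cells that fibroblasts and neurons also carry, gave 8.16, 8.41 and 8.34 in Cd36 null tissue and 7.49, 7.79 and 7.93 in WT tissue (0.57 ± 0.15 log2, SE, adjusted p = 0.0421). With neqc and an offset of 16 its adjusted p was 0.0692. Its second probe was not detected. Cd4, the co-receptor of helper T cells, was detected on no array, and its 2 probes averaged 5.90 and 5.87 in Cd36 null tissue and 5.88 and 5.87 in WT tissue. Cd5, a receptor that dampens T cell signals, was not detected. Zap70 and Lat had probes detected on 1 Cd36 null array and on no WT array and were not tested.

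Of the cytotoxic and NK cell genes, 4 of 5 had a probe, 3 were tested and 1 rose. Nkg7, a granule membrane protein of NK and cytotoxic T cells, gave 6.52, 6.96 and 6.94 in Cd36 null tissue and 6.10, 6.27 and 5.99 in WT tissue, a rise of 0.69 ± 0.15 log2 (SE, adjusted p = 0.0237). Klrd1, the CD94 chain of NK receptors, gave 6.07, 6.14 and 6.29 in Cd36 null tissue and 5.91, 5.81 and 5.98 in WT tissue. It did not pass, with a bound of 1.05-fold and an adjusted p of 0.253. Prf1, perforin, had 1 of 2 probes detected, and this gave 9.13, 8.24 and 8.70 in Cd36 null tissue and 9.07, 8.54 and 8.59 in WT tissue (-0.044 ± 0.23, adjusted p = 0.942). The genotypes overlapped, and whether this probe reads only perforin was not tested. The other Prf1 probe and the probe of Gzmb, the granule protease granzyme B, were detected on no array.

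Of the cytokine receptors and TNF family genes, 4 of 5 had a probe, 3 were tested and 1 rose. Il7r, the receptor chain that lymphocytes need for survival, was measured by 5 probes, of which 1 was tested. That probe gave 6.28, 6.43 and 6.33 in Cd36 null tissue and 5.86, 5.84 and 5.91 in WT tissue, at least 1.18-fold higher (adjusted p = 0.0353). The remaining 4 probes of Il7r were detected on at most 1 array of each genotype. Cd27, a co-stimulatory receptor of T and B cells, gave 6.23, 6.28 and 6.39 in Cd36 null tissue and 6.48, 6.22 and 6.42 in WT tissue (-0.072 ± 0.13, adjusted p = 0.806). Ltb, lymphotoxin beta, a cytokine that shapes lymphoid tissue, differed by -0.11 ± 0.14 (adjusted p = 0.705) and was detected on 1 Cd36 null and 2 WT arrays. Both overlapped between genotypes, and Il2rb, a receptor chain of NK and memory T cells, was not detected.

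B cell genes gave no difference past the threshold. Of 5 genes, 4 had a probe and 1 was tested. Cd79b, a signalling chain of the B cell receptor, gave 6.49, 6.59 and 6.65 in Cd36 null tissue and 6.31, 6.19 and 6.70 in WT tissue (0.18 ± 0.15 log2, SE, adjusted p = 0.558 in limma). WT replicate 3 was the highest of the 6 arrays. At an unadjusted p under 0.05 the count was 0 as well, and 0 with neqc values. Cd22, an inhibitory receptor of B cells, was detected on 2 Cd36 null arrays at most and on no WT array over its 3 probes. Ms4a1, which encodes CD20, and the B cell kinase Blk were detected on no array.

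**Figure D3:**
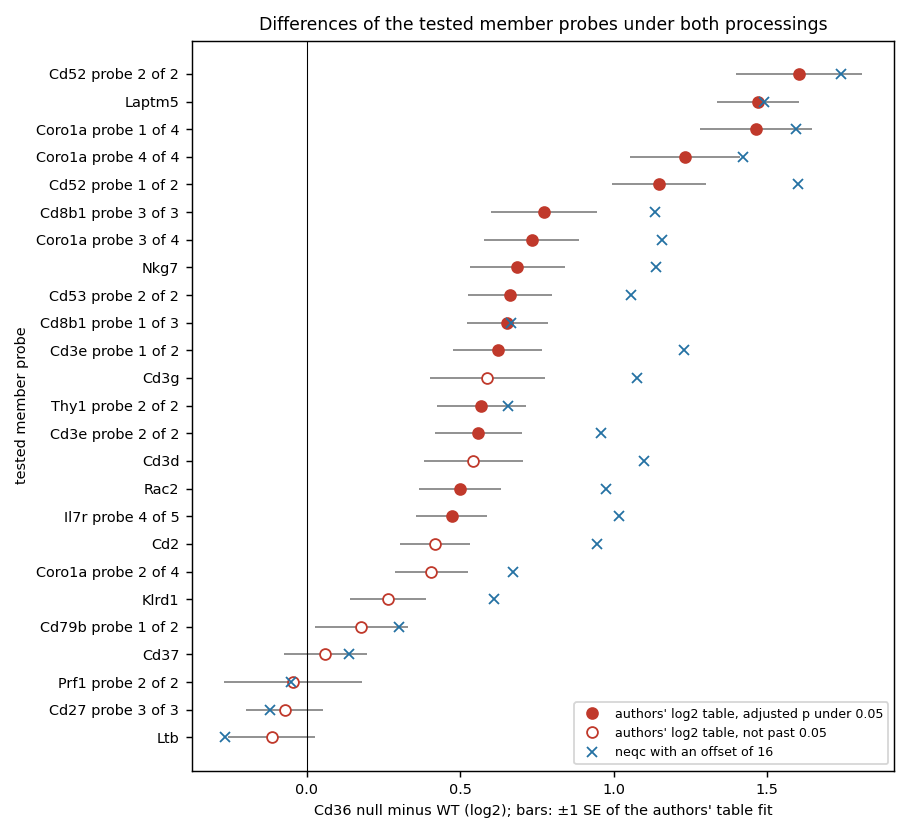
Difference between genotypes for the 25 tested probes. The horizontal axis is Cd36 null minus WT on the log2 scale; circles are the authors' log2 table with bars of 1 SE, filled where the adjusted p was under 0.05, and crosses are neqc with an offset of 16. Probes of Cd52, Laptm5 and Coro1a lie furthest to the right, at 1.60, 1.47 and 1.46, and the crosses of dim probes such as Cd52 probe 1 and Cd8b1 probe 3 lie to the right of their circles. Cd3d, Cd3g, Cd2, Klrd1, Il7r and Cd3e probe 1 were detected on no WT array, so their points are differences from background.

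The size of the difference of dim probes depended on the offset added before the logarithm. The median over the 19 genes was 0.96 log2 with neqc and an offset of 16, against 0.54 in the authors' table, and 17 of 25 probes were higher and 0 lower, against 5.01% and 2.23% of all tested probes. Both medians include the 5 genes measured against background in WT tissue. Among probes detected on all 6 arrays, the difference of the dimmer Cd52 probe was 1.60 with that offset and 1.15 in the authors' table, and that of Laptm5 1.49 and 1.47. Under that offset Cd3d (adjusted p = 0.0314), Cd2 (adjusted p = 0.00673) and the remaining Coro1a probe (adjusted p = 0.0380) passed, while Cd3g did not (adjusted p = 0.0658).

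The calls of Laptm5, both Cd52 probes and 2 Coro1a probes held under every alternative run, including the loss of any 1 array. The other 10 calls each ended when at least 1 array was left out. The number of probes called higher was 5 without Cd36 null replicate 2, 6 without WT replicate 1 and 6 without WT replicate 2, against 15 with all arrays. It was 13 and 11 without Cd36 null replicates 1 and 3, and 10 without WT replicate 3. No tested T cell, NK or cytokine receptor probe was called higher in all 6 of these fits.

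Lists of further T, B and NK cell genes were set beside these members, and in each the share of tested probes called higher is read against 5.36% of all tested probes. Of 28 further T cell genes, 23 had a probe and 8 were tested, and 0 rose or fell (limma), with 2 higher and 0 lower at an unadjusted p under 0.05 and 1 higher with neqc and an offset of 16. Their calls were 0 of 9 tested probes, and their median difference was 0.056 log2. Gata3, Themis, Cd96, Txk, Ubash3a, Lcp2 and Cd40lg were detected on no array. Of 25 further B cell genes, 20 had a probe, 5 were tested and 1 rose (1 of 6 tested probes), with a median of 0.35. That gene was Btk, a kinase of B cells and myeloid cells, with 0.56 ± 0.13 log2 (SE, adjusted p = 0.0268). Btk was detected on 3 Cd36 null arrays and 1 WT array, so its WT level lay near background. With no filter its adjusted p in limma was 0.0569. At an unadjusted p under 0.05, 2 probes of this list were higher and 1 lower. The lower probe, of Ebf1, differed by -0.51 ± 0.16 (adjusted p = 0.0913 in limma). Pax5, Pou2af1 and Cr2 were among the 9 not detected. Of 24 further NK and cytotoxic genes, 23 had a probe, 7 were tested and 3 rose (3 of 7 tested probes). Hcst, Ctsw and Klrk1 were detected on no WT array and were tested only through the Cd36 null arrays, so this count alone carries no weight. The median over the 7 genes was 0.26, and 0.047 with these 3 genes at their bound. Over the 4 genes detected in both genotypes it was -0.033. Tyrobp, a signalling adaptor of NK and myeloid cells, rose by 1.14 ± 0.15 (adjusted p = 0.00133), and Hcst, a related adaptor, was at least 1.68-fold higher (adjusted p = 0.00310). Ctsw, a protease of cytotoxic lymphocytes, was at least 1.18-fold higher (adjusted p = 0.0367). Ncr1, Eomes, Ifng, Fasl and Klrb1c were among the 12 not detected.

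Markers of some other cell types, not all, were called higher too. Calls of each list, here and in the next paragraph, are set against 5.36% higher and 2.85% lower of all tested probes. Of 27 macrophage markers, 25 had a probe, 20 were tested, 15 rose, 0 fell and 5 did not pass, with 19 of 28 tested probes higher and a median difference of 1.12 log2. Their summed level, the sum of normalised intensities of the tested genes, ranged from 28545 to 29649 in Cd36 null tissue and from 6691 to 8660 in WT tissue, and Itgam, Maf and Msr1 were detected on no array. Those of smallest p were Gpnmb and Lgals3 of lipid-laden macrophages, the lysozyme Lyz2 and the perforin-like Mpeg1, which rose by 3.96 ± 0.19, 3.22 ± 0.16, 2.00 ± 0.14 and 1.61 ± 0.14 log2 (SE). Of 12 lymph node stroma markers, 10 had a probe, 5 were tested, 4 rose and 0 fell (5 of 7 tested probes higher), with a median of 0.87. Mfge8, which many other cells express, rose by 1.21 ± 0.13 and the B cell chemokine Cxcl13 by 0.87 ± 0.16. Probes named Ccl21a and Ccl21c, near-identical copies of the chemokine that draws T cells into lymph nodes, rose by 0.83 ± 0.18 and 1.08 ± 0.21, and the signals of these copies cannot be told apart. The summed level of this list ranged from 12065 to 13495 in Cd36 null tissue and from 6018 to 7054 in WT tissue, while the lymph node markers Glycam1, Madcam1, Chst4 and Bst1 were detected on no array. This sum is linear, so bright genes weigh most in it. Mfge8 averaged 11.57 log2 in Cd36 null and 10.37 in WT tissue, against 8.49 and 7.41 for Ccl21c. Ccl21a averaged 8.31 and 7.48, and Cxcl13 7.21 and 6.34. These averages are of each gene's called probe of smallest p, while the sum takes each gene's brightest tested probe. They are therefore not the parts of the sum, which also includes the tested gene that did not pass. The part of macrophages and of lymph node tissue in the differences above was not tested.

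Of 8 mast cell markers, 6 were tested, 3 rose and 0 fell (3 of 9 tested probes higher). Another 2 probes, both of the receptor Kit, were lower at an unadjusted p under 0.05, and with no filter 0 mast cell probes were higher and 1 lower. The 3 that rose were the proteases Mcpt4, Cpa3 and Cma1, at 1.14 ± 0.18, 0.89 ± 0.16 and 0.99 ± 0.20 log2 (SE), while Ms4a2 and Tpsab1 were detected on no array. The summed level of mast cell markers overlapped, at 890 to 1037 in Cd36 null tissue and 813 to 1098 in WT tissue. Of 4 tested neutrophil markers 0 passed (limma), with 1 higher at an unadjusted p under 0.05 and 0 with neqc values. Of 4 tested erythroid markers 0 passed, with 1 past an unadjusted p of 0.05 and 0 with neqc values. Of 3 tested dendritic cell markers 1 fell and 0 rose (2 of 5 tested probes lower). The gene that fell was Itgae, which T cells also carry, with a difference of -0.57 ± 0.13 log2 (adjusted p = 0.0229). Itgax, Xcr1, Clec9a and Cd209a were detected on no array. Of 11 tested hepatocyte markers 5 rose (6 of 17 tested probes), the first by p being Cyp2e1, Ttr, Apoa2 and Ahsg. Of these 17 probes, 5 were detected on all Cd36 null arrays and no WT array, 5 of the 9 detected on all 6 arrays were higher, and with no filter 0 were higher. Their mean stood at 3.64, 1.17 and 1.51 log2 above the WT mean on Cd36 null replicates 1 to 3. Of 12 tested skeletal muscle markers 0 passed, at an unadjusted p under 0.05 or with neqc values too, and their mean stood at 0.53, -0.027 and -1.83 on the same arrays. The part of liver and muscle transcripts in the differences above was not tested.

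The leukocyte genes and the T cell genes did not follow the same order over the arrays. The mean of the 6 tested genes shared by leukocytes stood at 0.99, 0.96 and 0.93 log2 above the WT mean on Cd36 null replicates 1 to 3 and at -0.15, -0.082 and 0.23 on WT replicates 1 to 3. The macrophage markers stood at 1.29, 1.42 and 1.26 on the Cd36 null arrays and at -0.088, -0.073 and 0.16 on the WT arrays. In both lists WT replicate 3 was the highest WT array and the Cd36 null arrays were close together. The 6 tested T cell genes stood at 0.39, 0.75 and 0.53 on the Cd36 null arrays and at -0.080, 0.061 and 0.019 on the WT arrays, with Cd36 null replicate 2 the highest. Cd3d, Cd3g and Cd2 were detected on no WT array. Without them, Cd3e, Cd8b1 and Thy1 remain, at 0.41, 0.74 and 0.63 on the Cd36 null arrays and at -0.14, 0.065 and 0.071 on the WT arrays. Of these 3, Cd3e lay near background in WT tissue and Thy1 is also carried by fibroblasts and neurons. What the Cd8b1 probes read was not tested. The lymph node stroma markers stood at 0.96, 0.60 and 0.95 on the Cd36 null arrays, with replicate 2 the lowest, and at 0.029, -0.077 and 0.048 on the WT arrays. Differences in order between the lists were not tested.

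**Figure D4:**
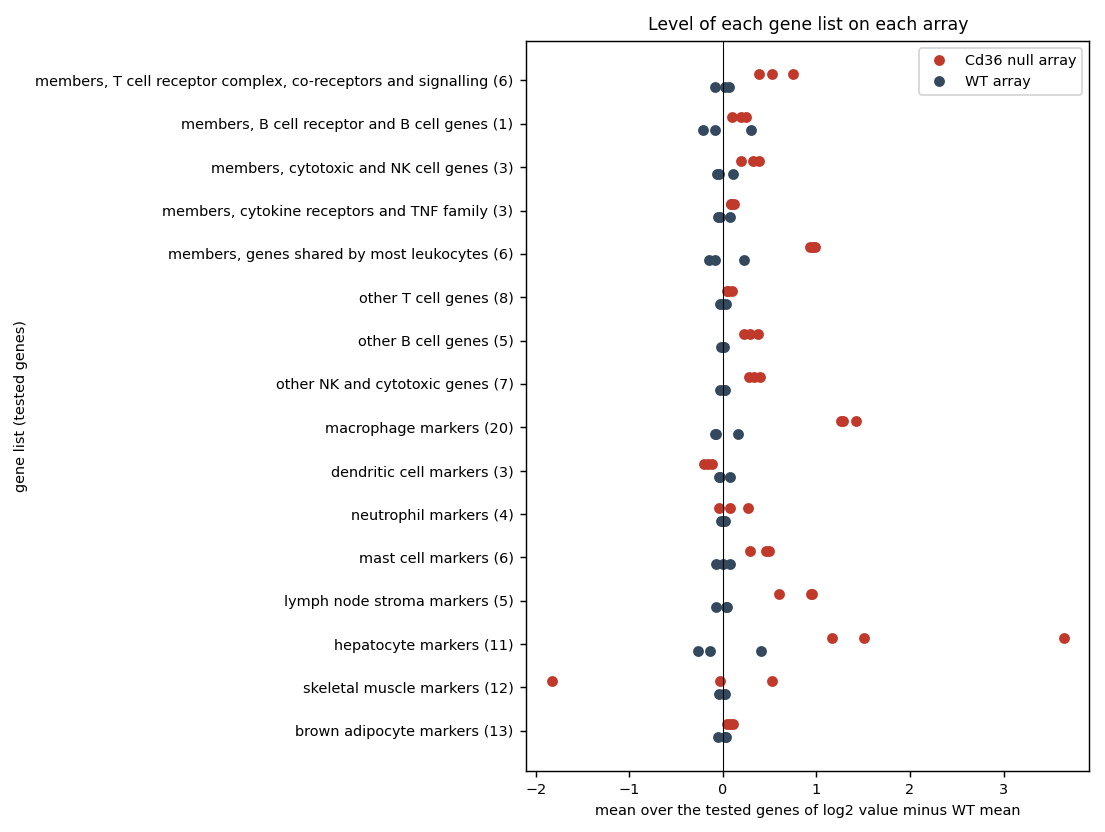
Level of each gene list on each array. The horizontal axis is the mean, over the tested genes of the list, of the log2 value minus the gene's WT mean; each point is an array, Cd36 null above WT in each row, and the number of tested genes stands in brackets. The genes shared by leukocytes lie at 0.93 to 0.99 on the Cd36 null arrays and the macrophage markers at 1.26 to 1.42. The lists include genes detected on no WT array, whose WT mean is background.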

How the data were processed

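RNA of brown adipose tissue from 3 Cd36 null and 3 WT samples was measured on Illumina bead arrays of 1 colour. The deposited scanner table holds, per the file headers, a linear intensity for each probe and array and a detection p-value beside it. The authors' deposited value table holds log2 values, and the submitters' processing notes name limma without a version. The sources used here do not describe its steps. Applying neqc with an offset of 50 to the intensities gave values within 0.024 log2 of it on every probe, so its scale and direction are known. Its column medians were 5.92 to 5.93. Every per-sample column was used.

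The authors' log2 table was the main measure here, since the rule for choosing the probes names it, and neqc with an offset of 16 was an alternative. Of its 45267 probes, 34875 had 1 symbol in the platform annotation, 18 had several and 10374 were unlisted. The 17912 probes that at least 3 arrays detected (p under 0.05) entered lmFit and eBayes in limma 3.58.1 under R 4.3.3 with default settings, and p-values were adjusted by Benjamini-Hochberg at 0.05. A gene's value in a list is that of its brightest tested probe, and folds against a genotype with no detection are bounds. The fit was tried on simulated data with known changes. Values are given for every tested gene, for a fixed set of receptor genes, and for up to 4 genes of smallest p in each further list. The genes, the lists and these rules were chosen with earlier results of these data known. Alternatives covered the background correction, scaling, filter, variance model, array weights, the replicate number as a block and each array left out. The headers give no slide, so no slide block was run.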

Additional observations from a re-analysis of the deposited data

How the results depend on the processing

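Of the 15 probes called higher in Cd36 null tissue, 5 passed under every alternative run, those of Laptm5, Cd52 (both) and Coro1a (2 of 4), and 0 of the 25 tested probes were lower under any alternative. The count of higher probes among these genes was 9 of 61 with no filter and 8 of 12 with detection on all 6 arrays, where the 12 are part of the 25. With no filter the same 25 probes are tested among 45267, and 8 of the 15 calls ended. It ranged from 5 to 13 when 1 array was left out, and the count of lower probes was 0 throughout. The median difference over the tested genes was 0.54 log2, 0.96 with neqc and an offset of 16, 0.38 without background correction and 0.18 with no filter, and 0.43 to 0.58 with 1 array left out. Over all probes, 960 were higher and 510 lower, against 1508 and 247 with median scaling, 560 and 289 with no filter, and 1485 and 1141 with array weights. With 1 array left out, 490 to 907 were higher and 180 to 434 lower. Higher probes made up 65.3% of all calls and 85.9% with median scaling, which moved the median difference of all tested probes from -0.036 to 0.083 log2. Of 359 values of single probes under the alternatives, 279 kept their side of the threshold and direction, 54 lost the call, 19 gained it and 7 turned in sign, none of them a called value. Those 7 were Prf1 at 0.11 with median scaling, -0.26 to 0.18 over the fits without 1 array (above 0 without Cd36 null replicate 2 and without WT replicate 1), Cd27 at 0.047 with median scaling and 0.0092 with array weights, and Cd37 at -0.042 with array weights and -0.016 to 0.14 over the fits without 1 array (below 0 without WT replicate 1). The cause of these shifts was not tested. With a detection p under 0.01, 30 probes were detected on at least 1 Cd36 null array and 16 on at least 1 WT array. Whether the replicate numbers pair the samples could not be decided from so few arrays. Same-numbered arrays had deviations from their genotype means that correlated at 0.12, -0.022 and 0.051, against -0.12 to 0.098 for unlike numbers. Of the 3 Cd36 null arrays, 2 correlated best with their own number. With the replicate number as a block 13 of 25 probes were higher, with the calls of Il7r and Rac2 ended. Probes detected on no WT array, those of Cd3d, Cd3g, Cd2 and Klrd1, the first Cd3e probe and the tested Il7r probe, give only bounds.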
